A study of Mus musculus with 6 samples.

Results

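The immunoglobulin heavy variable (Ighv) genes were followed in RNA sequencing data of mouse articular cartilage. All rows of the deposited gene table whose gene name began with Ighv were taken, which gave 137 of 34709 rows. The series held 6 libraries, 3 from knockout (KO) mice and 3 from wildtype (WT) mice, all labelled as cartilage. The mice were male, KO and WT mice were littermates, and the KO line was C57BL/6J. By the column names of the table the mice were 18 months old. The labels give no treatment for either group and name no tissue-specific driver of the deletion. Nothing in the labels says that each library came from a separate animal. The authors state that their experiments used independent samples, without naming the animal behind each library. The p-values below therefore measure the spread between these samples, which may be technical.

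A heavy-chain variable segment is the part of the antibody gene that encodes most of the antigen-binding domain. In a developing B cell, a V segment is joined to a D and a J segment, and the joined exon is then transcribed with a constant region. The segment that was joined is kept by all descendants of that cell, so a large clone or a few plasma cells, which carry very large amounts of antibody mRNA, can raise the count of a single segment. Segments are grouped into families of related sequence, named by the number after Ighv.

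The 137 rows lay on chromosome 12 of GRCm38, from position 113572927 to 116000461. They were 143 to 2570 kb from the end of Ighj1, the first of the joining segments, and 136 were on the minus strand. The exception was Ighv1-13, on the plus strand. By the annotation in the table, 27 were pseudogenes. The other 110 are called V genes here, although Ighv1-13 among them was annotated as IG_LV_gene. They fell into 16 families, of which Ighv1 was the largest with 71 rows. In GENCODE M21 transcripts, 133 had 2 exons, a short leader exon followed by the V exon.

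Because the segments are paralogs, the letters themselves bear on how reads can be assigned. The median member was 91.6% identical to its nearest relative over the transcript, 34 members were at least 95% identical and 6 at least 98% identical. Reads could therefore have been split between close relatives by the counting, and each count of a single segment is uncertain to that extent. The sequences below are those of the segments that led or stood out in a library. Each is the last 300 bases of the GENCODE M21 transcript, 5′ to 3′, and capitals mark bases that are not matched in the nearest relative in a global alignment.
Ighv9-1: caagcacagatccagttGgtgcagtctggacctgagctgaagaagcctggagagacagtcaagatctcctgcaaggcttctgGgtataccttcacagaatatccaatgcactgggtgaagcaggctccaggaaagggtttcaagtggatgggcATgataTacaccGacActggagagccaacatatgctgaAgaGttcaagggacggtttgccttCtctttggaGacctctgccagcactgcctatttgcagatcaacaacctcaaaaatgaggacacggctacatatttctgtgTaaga
Ighv14-4: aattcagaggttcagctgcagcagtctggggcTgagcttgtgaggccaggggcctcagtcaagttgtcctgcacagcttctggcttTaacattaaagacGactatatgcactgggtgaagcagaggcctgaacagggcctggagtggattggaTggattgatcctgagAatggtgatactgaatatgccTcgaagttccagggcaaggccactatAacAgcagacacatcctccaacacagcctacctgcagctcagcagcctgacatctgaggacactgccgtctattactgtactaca
Ighv6-3: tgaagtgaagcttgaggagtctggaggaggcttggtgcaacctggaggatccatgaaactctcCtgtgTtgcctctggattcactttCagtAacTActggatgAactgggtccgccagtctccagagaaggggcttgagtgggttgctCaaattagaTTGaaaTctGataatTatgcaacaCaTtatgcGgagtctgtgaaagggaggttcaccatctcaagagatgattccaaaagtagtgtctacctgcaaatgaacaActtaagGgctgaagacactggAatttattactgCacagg
Ighv1-42: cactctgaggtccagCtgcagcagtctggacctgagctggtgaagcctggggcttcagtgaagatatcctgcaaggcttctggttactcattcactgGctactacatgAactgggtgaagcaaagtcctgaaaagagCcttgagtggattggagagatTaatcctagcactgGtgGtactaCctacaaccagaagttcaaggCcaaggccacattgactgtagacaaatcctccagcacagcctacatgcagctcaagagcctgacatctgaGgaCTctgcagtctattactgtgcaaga
Ighv1-53: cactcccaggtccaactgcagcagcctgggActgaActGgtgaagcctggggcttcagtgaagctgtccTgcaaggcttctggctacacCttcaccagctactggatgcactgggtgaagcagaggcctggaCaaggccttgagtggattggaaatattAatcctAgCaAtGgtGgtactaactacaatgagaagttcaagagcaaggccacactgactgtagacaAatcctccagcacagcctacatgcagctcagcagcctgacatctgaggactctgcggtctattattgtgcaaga
Ighv3-6: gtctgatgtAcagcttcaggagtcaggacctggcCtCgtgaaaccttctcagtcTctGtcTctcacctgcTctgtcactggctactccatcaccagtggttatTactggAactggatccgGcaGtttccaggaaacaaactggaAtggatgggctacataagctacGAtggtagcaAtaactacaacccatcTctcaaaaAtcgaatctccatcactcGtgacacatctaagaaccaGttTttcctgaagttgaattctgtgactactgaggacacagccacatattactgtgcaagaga
Ighv1-26: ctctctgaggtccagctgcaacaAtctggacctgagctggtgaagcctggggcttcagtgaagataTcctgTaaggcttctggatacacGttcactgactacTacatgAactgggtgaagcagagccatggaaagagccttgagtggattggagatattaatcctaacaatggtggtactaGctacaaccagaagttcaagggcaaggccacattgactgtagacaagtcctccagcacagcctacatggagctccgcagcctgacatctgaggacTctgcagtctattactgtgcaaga
All are on the minus strand of GRCm38. Ighv9-1 lies at chr12:114093928-114094358, Ighv14-4 at chr12:114176438-114176867, Ighv6-3 at chr12:114391712-114392169 and Ighv1-42 at chr12:114937113-114937544. Ighv1-53 lies at chr12:115158403-115158835, Ighv3-6 at chr12:114288152-114288582 and Ighv1-26 at chr12:114788372-114788805. The first 4 lines are the segments that were dominant in a single sample, and the last 3 were high in several libraries. The nearest relative was Ighv9-2 for Ighv9-1 (95.7% identical), Ighv14-1 for Ighv14-4 (97.4%), Ighv6-6 for Ighv6-3 (90.8%) and Ighv1-30 for Ighv1-42 (96.3%). It was Ighv1-62 for Ighv1-53 (96.3%), Ighv3-1 for Ighv3-6 (91.7%) and Ighv1-18 for Ighv1-26 (96.9%).

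Total counts ranged from 52268311 to 63331135 per library. KO replicates 2 and 3 stood apart from the other libraries by their likeness. Their Ighv shares had a Pearson r of 0.996 and a Spearman rho of 0.969 across the 137 segments, against 0.325 to 0.624 and 0.782 to 0.878 in the other 14 pairs of libraries. Segments are not independent replicates, and these values describe the libraries only. Summing the smaller of both shares over all segments, KO replicates 2 and 3 had 95.6% of their Ighv usage in common, and any other pair 54.7 to 64.6%. Of the 10 leading segments, they shared 9, and the other pairs 3 to 6. The same held over all genes tested, where the median absolute log2 difference was 0.09 between KO replicates 2 and 3 and 0.19 to 0.35 between other libraries. They still differed by more than the counting noise, with a squared difference 4.12 times the Poisson value over 46 Ighv segments of at least 200 counts, against 128 to 508 times in other pairs. These libraries were therefore counted as 1 sample by their mean, which left 2 KO samples against 3 WT samples, and results are also given for the 6 libraries as labelled.

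**Figure D1:**
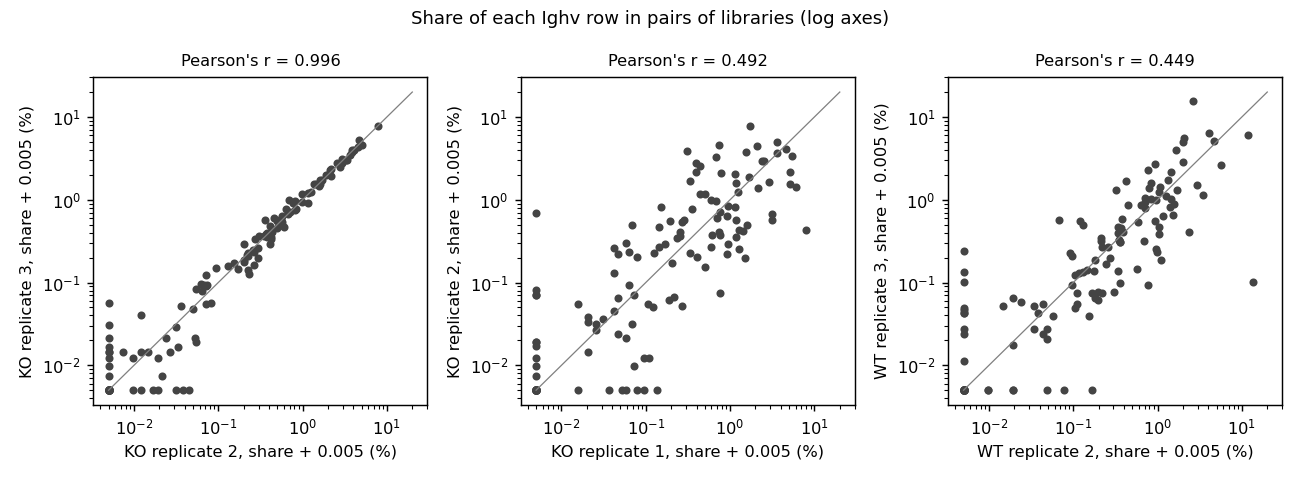
Share of the Ighv counts (percent, with a small constant added, log axes) of each segment in 3 pairs of libraries, where a point is a segment and the line marks equal shares. Points of KO replicates 2 and 3 lie along the line (Pearson r 0.996), and those of KO replicates 1 and 2 (0.492) and of WT replicates 2 and 3 (0.449) scatter around it.

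The labelled tissue was checked against marker genes. Of 10 cartilage genes, 8 passed the filter on low values, a mean of 0.5 FPKM (fragments for each kilobase of transcript at a fixed library size). The summed level of all 10 was 1436, 633 and 641 FPKM in KO replicates 1 to 3 and 608, 830 and 755 FPKM in WT replicates 1 to 3. Most of this sum was Prg4, at 1034, 436 and 441 FPKM in KO and 402, 581 and 494 FPKM in WT. Chad was at 70.3 to 230 FPKM, Col2a1 at 12.4 to 21.3 FPKM and Sox9 at 0.865 to 2.81 FPKM over the libraries. Matn3, at 0 to 0.202 FPKM, and Col9a1, at 0.0478 to 0.460 FPKM, did not pass the filter. Ighm, the constant region of IgM, was at 607 to 1060 FPKM in the same libraries, so the tissue also held RNA of the B lineage. The summed level of 10 mature B cell genes was 90.5 to 144 FPKM in KO and 274 to 315 FPKM in WT. For 11 genes of B cell precursors and recombination it was 39.2 to 43.7 and 91.9 to 104 FPKM, and for 10 plasma cell genes 249 to 310 and 289 to 357 FPKM. Among the 11, Erg alone went the other way, at 9.23, 11.6 and 11.5 FPKM in KO and 7.68, 7.09 and 7.07 FPKM in WT. In bulk tissue, fewer cells of a type and less RNA per cell cannot be told apart.

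The share of each library taken by all Ighv genes together did not differ between the groups beyond its spread. The 137 rows held 19039, 42020 and 42328 counts in KO replicates 1, 2 and 3, and 27201, 20824 and 31711 counts in WT replicates 1, 2 and 3. As a share of all counts this was 0.0364, 0.0665 and 0.0668% in KO and 0.0470, 0.0395 and 0.0561% in WT. KO held both the lowest and the highest library, so the groups overlapped. The mean share was 0.0515% ± 0.0214 (SD, n = 2) in KO and 0.0475% ± 0.00829 (SD, n = 3) in WT (exact two-sided permutation test, p = 1.0). With 2 against 3 samples the smallest p that this test can give is 0.2. The sign of the difference was not stable, since it turned to -0.0111 percentage points without KO replicates 2 and 3.

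The Ighv counts were also set against those of the 8 heavy-chain constant genes, and again the groups overlapped. There were 0.150, 0.174 and 0.174 Ighv counts per constant count in KO and 0.145, 0.136 and 0.164 in WT. The means were 0.162 ± 0.0168 (SD, n = 2) and 0.149 ± 0.0145 (SD, n = 3), with an exact permutation p of 0.4. Of the mature B cell genes, 10 of 10 were lower in KO at an unadjusted p under 0.05 in edgeR's quasi-likelihood test, where 6.07% of all genes tested were lower at that threshold, and 0 passed adjustment. The part of the B cell and plasma cell genes in the Ighv values was not tested.

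Most segments were detected. Of the 137, 86 had counts in all 6 libraries and 3 had none in any. The filter of 0.5 FPKM was passed by 95, namely 91 V genes and 4 pseudogenes (Ighv3-2, Ighv1-41, Ighv1-62 and Ighv8-10), and 42 fell below it. Pseudogenes held 0.527 to 1.08% of the Ighv counts of a library.

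Usage was spread over many segments in every library. The effective number of segments, which is the number of equally used segments that would give the same Shannon entropy, was 46.4, 48.4 and 48.8 in KO replicates 1 to 3. In WT replicates 1 to 3 it was 51.6, 40.7 and 38.3. WT thus held the most even library and the 2 least even ones. Means were 47.6 ± 1.61 (SD, n = 2) in KO and 43.5 ± 7.06 (SD, n = 3) in WT (exact permutation test, p = 0.6). Pielou evenness, the entropy divided by its maximum for 137 rows, ran from 0.741 to 0.801. The inverse Simpson index, which weights the leading segments more, was 31.5, 34.2 and 34.7 in KO and 31.6, 21.2 and 20.3 in WT. Between 8 and 13 segments were enough for 50% of the Ighv counts of a library.

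**Figure D2:**
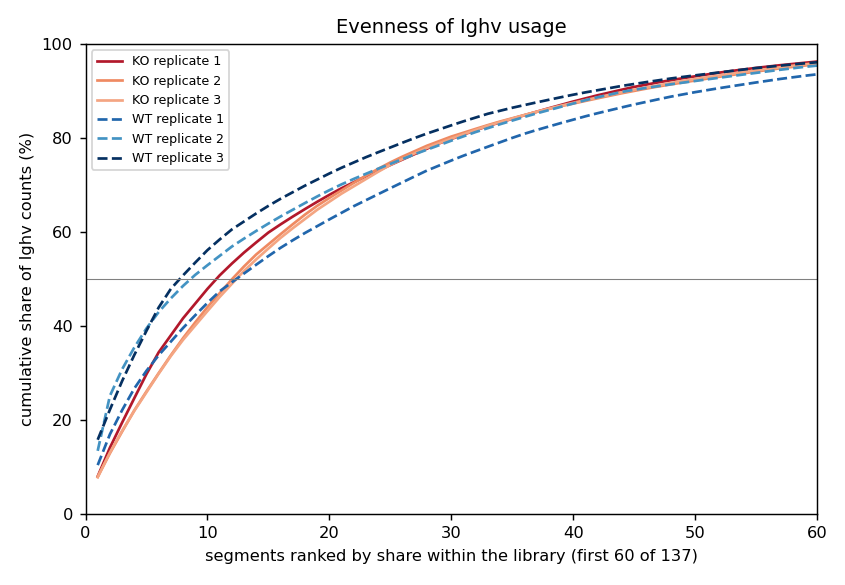
Cumulative share of Ighv counts (percent) against the number of segments, ranked from the most used within each library. Each line is a library; the curves of WT replicates 2 and 3 rise fastest, reaching 50% with 9 and 8 segments, and the others with 11 to 13.

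Each library had its own leading segment, apart from KO replicates 2 and 3. In KO replicate 1 it was Ighv9-1 with 7.96% of the Ighv counts (95% Wilson interval 7.59 to 8.36%). In KO replicates 2 and 3 it was Ighv3-6 with 7.87% (7.62 to 8.13%) and 7.79% (7.54 to 8.05%). WT replicate 1 was led by Ighv1-53 with 10.4% (10.003 to 10.7%), WT replicate 2 by Ighv1-42 with 13.4% (12.9 to 13.9%) and WT replicate 3 by Ighv6-3 with 15.8% (15.4 to 16.2%). These intervals cover counting error only. The same segments led when FPKM was used in place of counts. The leading share was lower in both KO samples than in all WT samples, 7.90% ± 0.0933 (SD, n = 2) against 13.2% ± 2.71 (SD, n = 3), with an exact permutation p of 0.2, the smallest this design can give. Adjusted over the 6 values tested for the whole gene group, p was 0.72.

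Dominance in a single sample was defined as at least 5% of the Ighv counts and at least 5 times the median share in the other samples, and 4 segments met it. Ighv9-1 held 7.96% in KO replicate 1 and a median of 0.224% elsewhere, a ratio of 35.5. Ighv14-4 held 6.09% in the same library and a median of 0.507% elsewhere, a ratio of 12.01. In WT replicate 2, Ighv1-42 held 13.4% against 0.377%, a ratio of 35.6. In WT replicate 3, Ighv6-3 held 15.8% against 2.62%, a ratio of 6.005. WT replicate 1 and the KO sample of replicates 2 and 3 had no such segment.

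Values near these limits were continuous with those past them. Ighv1-19 in WT replicate 1 had a ratio of 5.19 but a share of 4.63%. Ighv1-61 held 3.83% in the mean of KO replicates 2 and 3, a ratio of 13.6, and Ighv5-9-1 held 3.49% in WT replicate 2, a ratio of 16.2. Ighv1-76 held 5.13% in KO replicate 1 with a ratio of 3.88.

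The nearest relatives of the dominant segments held smaller shares than these in the same libraries. Ighv9-2 held 0.0368% where Ighv9-1 held 7.96%, and Ighv14-1 held 0.0420% where Ighv14-4 held 6.09%. Ighv6-6 held 0.946% in WT replicate 3, within its range of 0.494 to 1.27% over the libraries. Ighv1-30, a pseudogene, had no count in WT replicate 2, but it had none in any library except KO replicate 3 (7 counts). Ighv1-43, which is 95.4% identical to Ighv1-42, had 6 counts in WT replicate 2 and 1 to 10 over the libraries. When the 4 dominant segments were left out, an alternative chosen after seeing the data, the effective number was 47.6, 45.4 and 45.7 in KO and 48.8, 44.1 and 44.1 in WT. These segments were picked for their large shares in KO replicate 1 and WT replicates 2 and 3. A rise in those libraries was therefore built into the choice, and no conclusion is drawn from it.

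**Figure D3:**
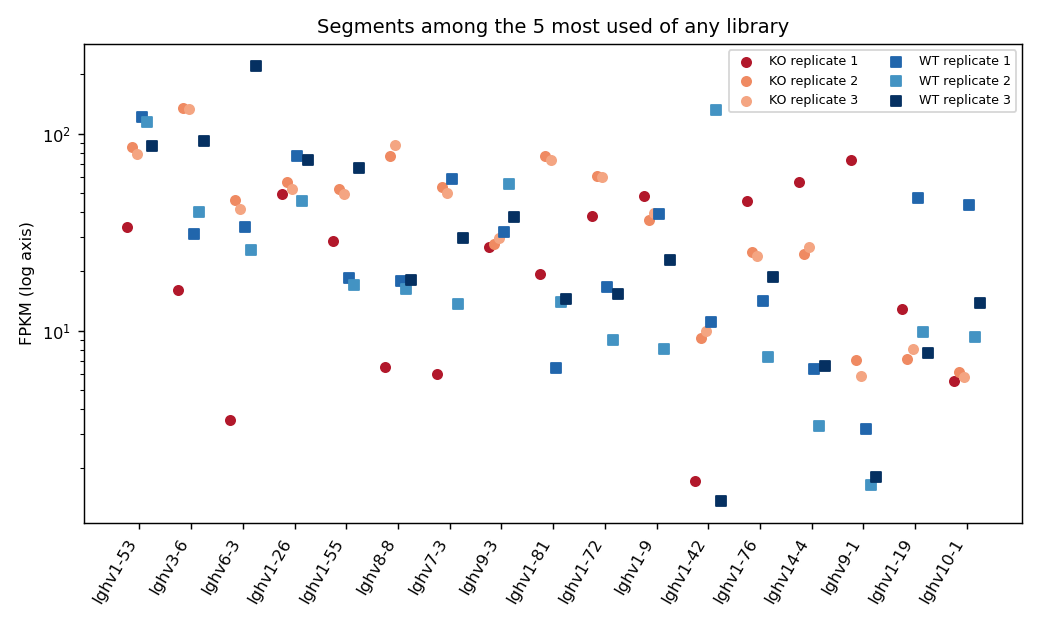
FPKM in each library of the 17 segments that were among the 5 most used in any library. Points are single libraries, circles KO and squares WT; Ighv6-3 reached 221 FPKM in WT replicate 3 and Ighv1-42 132 FPKM in WT replicate 2, while Ighv1-26 lay between 45.5 and 77.0 FPKM in all 6.

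In total, 17 segments were among the 5 most used of any library. Ighv1-26 was the steadiest of the segments printed above, with 49.6, 56.9 and 52.3 FPKM in KO and 77.0, 45.5 and 73.2 FPKM in WT. The groups overlapped. Ighv1-53 was at 33.5, 85.1 and 79.0 FPKM in KO and 122, 115 and 86.5 FPKM in WT, so that all KO libraries lay below the lowest WT library by a small margin. Its log2 difference, KO minus WT, was -0.90 (SE 0.34, adjusted p = 0.312 by edgeR's quasi-likelihood test), and it was -0.43 without KO replicate 1 and -1.61 without KO replicates 2 and 3. Ighv3-6 was at 16.1, 134 and 134 FPKM in KO and 30.9, 40.1 and 91.2 FPKM in WT. Here KO held both the lowest and the highest values. Ighv8-8 had the same form, with 6.55, 76.9 and 87.9 FPKM in KO and 17.8, 16.3 and 17.99 FPKM in WT. Ighv7-3 was at 6.0004, 53.7 and 49.9 FPKM in KO and 58.6, 13.7 and 29.4 FPKM in WT, and the groups overlapped.

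Single segments varied between WT libraries far more than other genes. The SD of log2 CPM (counts at a fixed library size) over the 3 WT libraries had a median of 0.78 over the 95 tested segments and of 0.18 over all 15373 genes tested. These sets were not matched for level. At a mean of 200 counts or more, the median squared difference in pairs of WT libraries was 130 to 219 times the Poisson value over Ighv segments. Over all genes it was 24.3 to 47.7 times. Over the 5 samples, the highest usage was at least 5 times the lowest, or the lowest was 0, in 59 of the 95. It was less than 2 times the lowest in 4, namely Ighv10-3, Ighv1-22, Ighv1-64 and Ighv1-75. Ighv1-64, for instance, held 2.51, 2.95 and 3.06% in KO and 1.92, 1.98 and 2.86% in WT.

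In the comparison of 2 KO and 3 WT samples no segment was called different by edgeR. In edgeR's quasi-likelihood test over 15373 genes, 0 of the 95 tested segments had an adjusted p under 0.05, where the share called over all genes was 0.0%. At an unadjusted p under 0.05, 14 segments (14.7%) were higher in KO, against 7.63% of all genes, and 6 (6.32%) were lower, against 6.07%. Without overlap between the 2 KO and the 3 WT samples, 13 (13.7%) were higher and 8 (8.42%) lower, against 15.0% of all genes in either direction. Among the 6 lower, Ighv11-1 and Ighv1-62 passed the filter only through WT, so they could only be lower. Ighv1-62 was also among the 8 without overlap. The log2 difference was positive in 49 segments and negative in 46, with a median of 0.12 against -0.02 over all genes. On the log2(FPKM + 1) scale in limma the median was -0.01, so its sign depended on the scale. With the 6 libraries as labelled, 3 segments were called higher (3.16%, against 2.46% of all genes): Ighv1-72, Ighv14-4 and Ighv1-66. With DESeq2, 11 were called (11.6%, against 5.72% of all genes). Of these, 9 were higher and 2 lower, against 530 and 349 of all 15373 genes.

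**Figure D4:**
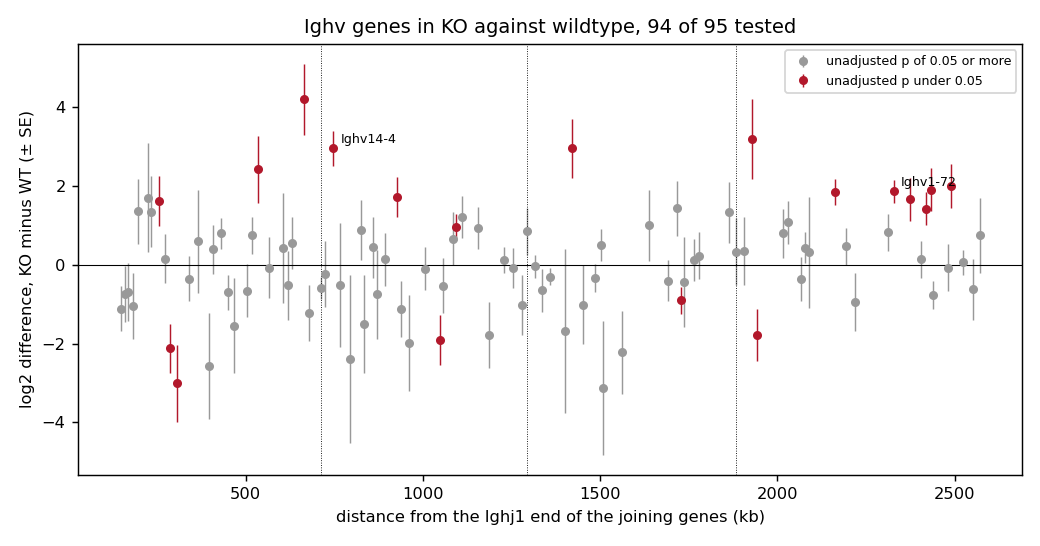
Log2 difference, KO minus WT (edgeR, 2 KO and 3 WT samples), of the tested Ighv segments against their distance (kb) from Ighj1, with SE bars, unadjusted p under 0.05 in red and dotted lines between 4 bins of position. Ighv11-1, at 0 in all KO libraries, is not drawn; in the bin farthest from Ighj1, 18 of 24 differences were positive, and no segment passed adjustment over all genes.

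The 5 segments with the smallest p among those higher in KO did not pass adjustment in edgeR with 2 KO and 3 WT samples, and all 5 did in DESeq2. Ighv14-4 was at 56.5, 24.5 and 26.5 FPKM in KO and 6.42, 3.28 and 6.61 FPKM in WT. All KO libraries lay above all WT libraries, and the log2 difference was 2.96 (SE 0.44, adjusted p = 0.157, edgeR). Without KO replicate 1, where it was dominant, the difference was 2.19. Ighv1-72 was at 38.1, 60.9 and 60.2 FPKM in KO and 16.7, 8.98 and 15.4 FPKM in WT, again without overlap. Its log2 difference was 1.86 (SE 0.29, adjusted p = 0.166, edgeR). Ighv1-66 was at 7.39, 9.38 and 11.4 FPKM in KO and 2.04, 2.13 and 3.26 FPKM in WT, a log2 difference of 1.85. Ighv9-1 was at 73.8, 7.09 and 5.87 FPKM in KO and 3.19, 1.64 and 1.81 FPKM in WT. Its log2 difference of 4.21 rested on KO replicate 1 and was 1.496 without that library. Ighv1-34 was at 6.41, 32.5 and 35.1 FPKM in KO and 4.04, 2.67 and 0.931 FPKM in WT, and its difference of 2.96 was 1.41 without KO replicates 2 and 3.

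Of the 5 with the smallest p among those lower in KO, 0 passed adjustment in the same edgeR fit, and Ighv10-1 and Ighv2-6 did in DESeq2 (adjusted p = 0.0265 and 0.0305). Ighv2-6 was at 0.496, 1.502 and 2.46 FPKM in KO and 4.61, 3.61 and 8.29 FPKM in WT, a log2 difference of -2.11 without overlap of the groups, which was -3.27 without KO replicates 2 and 3. Ighv5-9-1 was at 1.56, 2.38 and 1.99 FPKM in KO and 2.26, 29.1 and 13.7 FPKM in WT, so WT replicate 1 lay within the range of the KO libraries. Ighv10-1 was at 5.52, 6.17 and 5.79 FPKM in KO and 43.2, 9.24 and 13.9 FPKM in WT. All KO libraries lay below all WT libraries, and the log2 difference of -1.90 was -1.003 without WT replicate 1. Ighv11-1 had no count in any KO library and 41, 0 and 41 counts in WT. The pseudogene Ighv1-62, the nearest relative of Ighv1-53, had 3, 12 and 5 counts in KO and 11, 22 and 22 counts in WT. Ighv11-1 and Ighv1-62 were near the floor and passed the filter of 0.5 FPKM only through WT. Their mean levels were 0 and 0.218 FPKM in KO and 1.19 and 0.817 FPKM in WT. A segment that passes in this way can only be lower in KO.

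Family Ighv1 held the larger part of usage in 5 of the 6 libraries. Its share was 63.3, 56.3 and 55.5% in KO and 54.5, 63.7 and 47.3% in WT, with means of 59.6% ± 5.24 (SD, n = 2) and 55.2% ± 8.25 (SD, n = 3) (exact permutation test, p = 0.6). Shares of small families differed between libraries. Family Ighv9 held 11.4% in KO replicate 1, most of it Ighv9-1, and 2.30 to 6.21% elsewhere. Family Ighv6 held 16.7% in WT replicate 3, most of it Ighv6-3, and 0.882 to 4.18% elsewhere. Family Ighv7 held 9.44% in WT replicate 1 and 1.02 to 3.66% elsewhere, and all 3 of its segments were highest there, with Ighv7-3 at 5.13%, Ighv7-1 at 2.90% and Ighv7-4 at 1.41%.

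Usage was also followed along the locus, with segments ordered by their distance from Ighj1 and divided into 4 bins of 34 or 35 rows. The nearest bin, up to 679 kb, held 20.2, 17.6 and 18.5% of the Ighv counts in KO and 18.2, 16.5 and 18.2% in WT, with means of 19.1% ± 1.53 (SD, n = 2) and 17.6% ± 1.01 (SD, n = 3) (exact permutation test, p = 0.6). The groups overlapped. The most distant bin, from 1882 to 2570 kb, held 31.4, 30.3 and 29.7% in KO and 17.0, 19.0 and 22.0% in WT, and here they did not. This bin was singled out of 4 after its values were seen, so it is given as a description with no test. Of its 24 tested segments, 18 had a positive and 6 a negative log2 difference, with a median of 0.45, against medians of -0.21, -0.16 and -0.30 in the other bins from near to far. Without its 3 most used segments (Ighv1-80, Ighv1-72 and Ighv1-64) it held 21.9, 20.3 and 19.95% in KO and 11.6, 14.0 and 13.0% in WT.

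**Figure D5:**
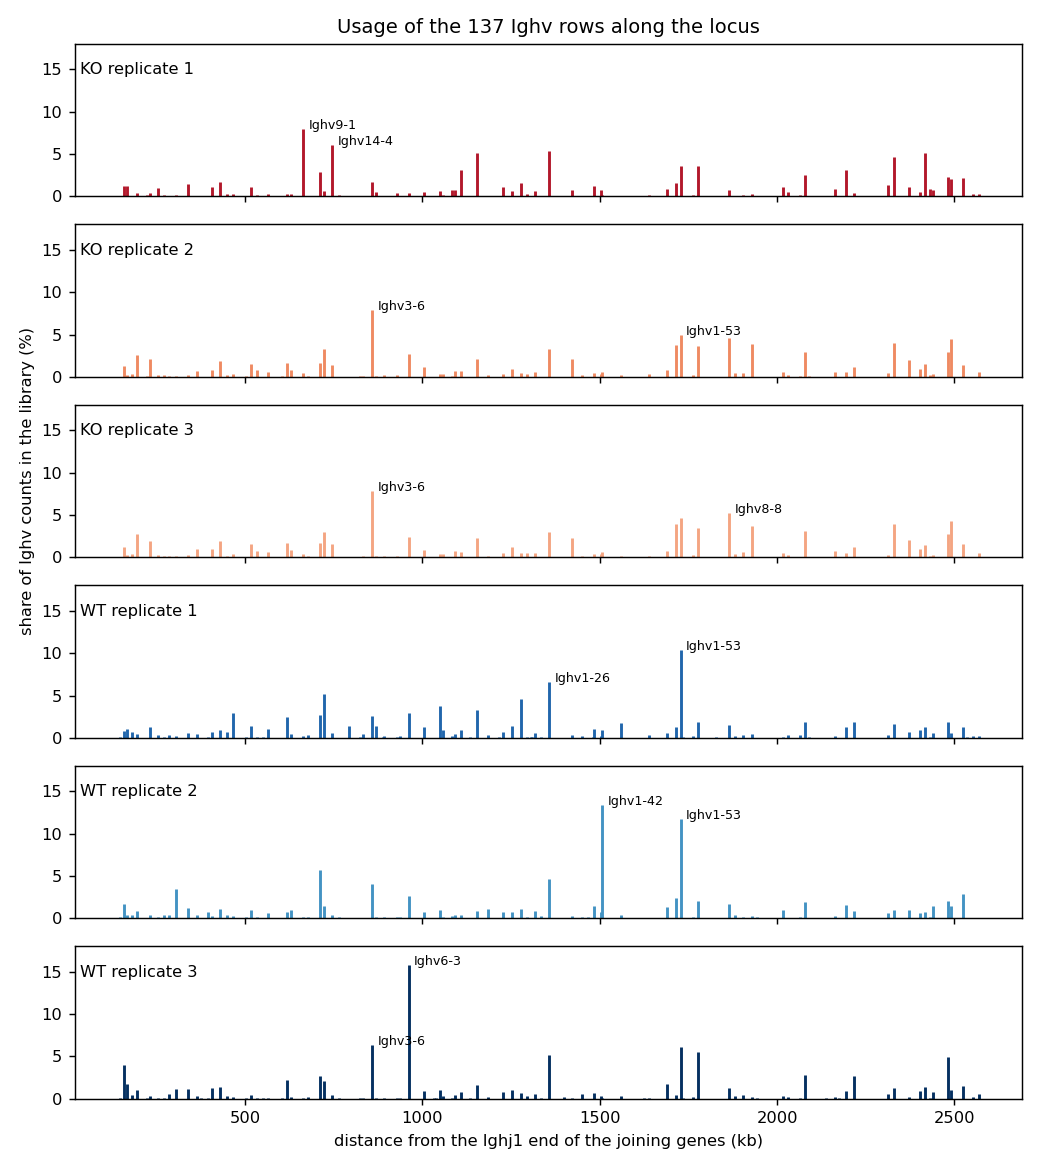
Share of Ighv counts (percent) of each segment against its distance (kb) from the end of Ighj1, with a panel for each library and its 2 most used segments named. The tallest bars differ between libraries, except between KO replicates 2 and 3.

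The other genes of the antibody locus and of the B lineage were taken from lists and tested in the same edgeR fit, in which 0 genes passed adjustment. All counts in this paragraph are at an unadjusted p under 0.05, which 7.63% of all genes passed as higher in KO and 6.07% as lower. Of 7 tested constant genes, 3 were higher in KO (Ighg1, Ighg2b and Ighg2c, which encode IgG subclasses) and 1 was lower (Ighd, the constant region of IgD). Ighg2b took 15.2, 4.56 and 4.49% of the constant counts in KO and 2.52, 2.39 and 2.90% in WT. It was highest in KO replicate 1, as was Ighg2c at 7.87%, while Ighg1 was highest in KO replicate 3 at 7.26%. A link of these genes to single Ighv segments was not tested. Of the 4 joining segments, 0 had such a p, and the level of each overlapped between the groups. As shares of the joining counts, Ighj2 made up 38.4, 28.0 and 26.4% in KO and 11.5, 16.9 and 25.8% in WT. Ighj4 made up 25.6, 28.0 and 33.3% in KO and 56.1, 36.2 and 42.9% in WT. Neither share overlapped, in opposite directions, though the margin for Ighj2 was small. Ighj1 (11.3 to 33.2%) and Ighj3 (13.1 to 20.1%) did overlap. These 2 of 4 were singled out after their values were seen, and shares of a whole are not independent, so no test is given. By level, 15.0% of all genes tested were without overlap in each direction. Of 4 light-chain constant genes, 2 were lower. Of the 11 precursor and recombination genes, 10 were lower and 1, Erg, was higher. Rag1, a subunit of the recombinase, was at 1.88, 1.89 and 1.69 FPKM in KO and 5.47, 6.03 and 4.26 FPKM in WT. Of the 10 plasma cell genes, 3 were lower (Sdc1, Irf4 and Mzb1) and 0 higher, while the log2 difference was positive in 4 and negative in 6. Xbp1, a transcription factor of secretory cells, was at 67.5, 71.8 and 72.6 FPKM in KO and 54.3, 61.1 and 56.1 FPKM in WT, without overlap but with an unadjusted edgeR p of 0.0602. Jchain, which joins IgM and IgA chains into polymers, was at 128, 165 and 174 FPKM in KO and 162, 228 and 178 FPKM in WT, and the groups overlapped. Of the 8 tested cartilage genes, 0 had an unadjusted p under 0.05.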

How the data were processed

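Polyadenylated RNA of 3 KO and 3 WT cartilage libraries was sequenced as paired ends with strand-specific chemistry. The authors deposited FPKM values and estimated counts per gene. The counts were whole as given. The submitters' processing notes name cutadapt 1.9, HISAT2 2.0.4, UMI-tools, StringTie 1.3.4d, DESeq2 and edgeR without their roles. Groups and replicate numbers came from the sample titles. The deleted gene is not reported here. All per-sample columns were used.

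Genes averaging 0.5 FPKM or more were tested on the counts with edgeR 4.0.16 (R 4.3.3; TMM scaling, quasi-likelihood, Benjamini-Hochberg), after KO replicates 2 and 3 were averaged and rounded. The 6 values for the whole gene group (share of library, effective number, leading share, share of the nearest bin of segments, family Ighv1 and count per constant count) were compared by exact two-sided permutation tests (SciPy 1.17.1). Identities came from global alignment (Biopython 1.88) of GENCODE M21 transcripts, and the positions of all 137 rows equalled those of the table. Named segments were the 5 most used in each library and the 5 with the smallest p in each direction, and any other named was chosen after its values were seen. The lists were heavy-chain constant, joining, light-chain constant, plasma cell, precursor and recombination, mature B cell and cartilage genes. Members, lists and the merging of libraries were chosen with earlier results of these data known. Alternatives were the 6 libraries as labelled, a replicate block, median-of-ratios scaling, DESeq2 1.42.0, limma 3.58.1 on log2(FPKM + 1) and log2(FPKM + 0.1), other filters, FPKM in place of counts and each library left out.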

Additional observations from a re-analysis of the deposited data

How the results depend on the processing

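The count of called segments was 0 of 95 in the comparison of 2 KO and 3 WT samples, against 0 of 15373 genes. At an unadjusted p under 0.05 in edgeR, 20 segments passed there, against 2106 of the 15373 genes. The count of called segments was 3 with the 6 libraries as labelled (570 of 15373 genes) and 11 with DESeq2 (879 of 15373 genes). Without a filter on low values it was 2 of 134, against 21 of 33321 genes. Leaving out KO replicate 1, or KO replicates 2 and 3 together, left 1 KO sample, so only effect sizes are given for these fits. The alternative without KO replicates 2 and 3 together was chosen after seeing the data. The count stayed at 0 with median-of-ratios scaling, both limma fits, a minimum of 5 FPKM and each library other than KO replicate 1 left out in turn. The difference, KO minus WT, in the share of Ighv counts in a library was 0.00399 percentage points in the comparison of 2 KO and 3 WT samples. It turned to -2.27e-05 without WT replicate 2 and to -0.0111 without KO replicates 2 and 3 together. When each library was left out, it ranged from -2.27e-05 to 0.0191. The difference, KO minus WT, in the share of the bin of segments nearest to Ighj1 turned to -3.55 percentage points without the 4 dominant segments. Of these, Ighv9-1, with 7.96% of the Ighv counts in KO replicate 1, lay in that bin. A lower KO share was therefore built into this choice. Among log2 differences, Ighv1-19 became 0.23 without WT replicate 1, and Ighv1-55 became -0.07 without WT replicate 1, -0.079 without WT replicate 2 and -0.17 without KO replicates 2 and 3. Ighv3-6 became -0.040 and -0.055 in limma at pseudocounts of 1 and 0.1 FPKM, and -1.66 without KO replicates 2 and 3, where Ighv8-8 became -1.32. Ighv7-3 became 0.10 with the 6 libraries as labelled, 0.037 with the replicate block, 0.59 without KO replicate 1 and 0.39 without WT replicate 1. Over the libraries left out in turn, Ighv1-19 ranged from -1.51 to 0.23, Ighv1-55 from -0.079 to 1.18 and Ighv7-3 from -0.60 to 0.59. The cause of these changes was not tested. Deviations of same-numbered libraries had correlations of -0.145, -0.108 and -0.0581 over genes, and no library correlated best with its own number. With KO replicates 2 and 3 nearly alike, these values cannot decide whether replicate numbers pair the libraries. The fit of the 6 libraries with the replicate block called 0 segments, as did the comparison of 2 KO and 3 WT samples. It had 23 segments at an unadjusted p under 0.05, against 2809 of 15373 genes. With 2 or 3 samples per group, the permutation tests could not fall below p = 0.2, or 0.1 for the 6 libraries.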
